A study of Mus musculus with 6 samples.

Results

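The genes of the insulin-like growth factor (IGF) system examined here are 9 of the 24393 genes listed in each count table: the ligand Igf1, the receptors Igf1r and Insr, and the binding proteins Igfbp2, Igfbp3, Igfbp4, Igfbp5, Igfbp6 and Igfbp7. They were taken by gene symbol and each was found once in all 6 libraries. The comparison asked how their transcripts differed between mouse embryonic stem cell derivatives expressing human HOXA13 and their controls.

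All 6 libraries came from KH2, an embryonic stem cell line (strain given as C57/BL/6) that carries doxycycline-inducible transgenes at a targeted locus. In the HOXA13 group (n = 3) the transgene was FLAG-tagged human HOXA13, and what the CONTROL group (n = 3) carried at that locus is not described. The 3 libraries of a group are described as selected biological replicates. Cells were differentiated toward endoderm on M15 feeders, a mouse mesonephric line, with Activin-A, bFGF, the GSK3 inhibitor CHIR and Noggin. Doxycycline (1.25 µg/ml) was added from day 4, and double-positive cells (CXCR4+, E-cadherin+) taken by flow sorting on day 6 stayed in doxycycline for a further culture before RNA was collected. The protocol is worded alike for both groups, and the sources do not state separately whether the controls received the drug. M15 is of mouse origin, so reads from any remaining feeder cells could not be separated from those of KH2 cells.

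IGF1 and IGF2 are secreted growth factors that act mainly through the receptor tyrosine kinase IGF1R, which is closely related to the insulin receptor INSR. Receptor signals pass through adaptor proteins to the PI3K-AKT-mTOR cascade, which promotes growth and survival. IGF-binding proteins hold the ligands outside the cell and limit or prolong their access to receptors, and secreted or membrane-bound proteases cleave the binding proteins and free the ligand. IGFBP7 differs from the others in binding IGFs only weakly.

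The libraries held between 12279884 and 17331638 counted reads, so that a floor of 3 reads corresponded to 0.176 to 0.240 CPM (the reads of a gene scaled to a common TMM library size). Human HOXA13 was counted in its own row, with no read in the 3 CONTROL libraries and with 2497, 7666 and 6572 reads in the HOXA13 libraries. Across all genes, 42 of 13600 tested passed an adjusted p of 0.05 in edgeR's quasi-likelihood test, which is 0.309% of genes. Of the sorted proteins, Cdh1 (E-cadherin) was measured at 192, 1292 and 702 CPM in the CONTROL libraries and at 1732, 1690 and 1893 CPM in the HOXA13 libraries. Cxcr4 lay between 2.25 and 11.3 CPM throughout. The endoderm markers Sox17 and Foxa2 did not exceed 5.04 CPM in any library, and Cer1 had no reads, while other genes of the 11-gene endoderm list were present, with Eomes at 24.4 to 111 CPM, Gata4 at 13.1 to 31.9 CPM and Gata6 at 5.69 to 35.8 CPM. The summed level of 8 pluripotency markers was highest in CONTROL 2 (1227 CPM, with Pou5f1 at 310 CPM) and next highest in HOXA13 1 (647 CPM, with Pou5f1 at 75.9 CPM), although Klf4 was highest in HOXA13 2. In bulk samples such as these, fewer cells of a type and less RNA per cell cannot be told apart.

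Igfbp2, Igfbp5 and Igfbp7 had the largest fold changes of the binding-protein genes, and their upstream sequences are shown here to give the regions next to their start sites. Igfbp2 and Igfbp5 are neighbours on chromosome 1, arranged tail to tail with 5457 bases between their ends, while Igfbp7 lies on chromosome 5. The 250 bases before each RefSeq gene start (GRCm38.p6) are given 5′ to 3′ on the gene's strand. Igfbp2 has 2 annotated starts and both windows are shown. Capitals mark GC boxes.
Igfbp2 first start, chr1:72824230-72824479, plus strand: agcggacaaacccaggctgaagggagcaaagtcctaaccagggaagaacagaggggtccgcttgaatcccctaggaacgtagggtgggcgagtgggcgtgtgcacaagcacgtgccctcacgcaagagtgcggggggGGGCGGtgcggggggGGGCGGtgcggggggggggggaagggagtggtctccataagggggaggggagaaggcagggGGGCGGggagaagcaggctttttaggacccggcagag
Igfbp2 second start, chr1:72825137-72825386, plus strand: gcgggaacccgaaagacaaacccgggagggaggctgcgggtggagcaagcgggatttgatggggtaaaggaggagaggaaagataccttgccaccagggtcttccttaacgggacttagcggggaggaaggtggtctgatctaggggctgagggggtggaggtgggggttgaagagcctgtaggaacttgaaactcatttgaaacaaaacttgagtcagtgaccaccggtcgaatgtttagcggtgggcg
Igfbp5, chr1:72874866-72875115, minus strand: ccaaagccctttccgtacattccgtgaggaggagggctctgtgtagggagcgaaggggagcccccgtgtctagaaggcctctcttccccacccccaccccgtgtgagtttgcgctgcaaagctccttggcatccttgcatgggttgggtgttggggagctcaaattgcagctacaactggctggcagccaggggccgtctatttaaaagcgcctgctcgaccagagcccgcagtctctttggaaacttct
Igfbp7, chr5:77408046-77408295, minus strand: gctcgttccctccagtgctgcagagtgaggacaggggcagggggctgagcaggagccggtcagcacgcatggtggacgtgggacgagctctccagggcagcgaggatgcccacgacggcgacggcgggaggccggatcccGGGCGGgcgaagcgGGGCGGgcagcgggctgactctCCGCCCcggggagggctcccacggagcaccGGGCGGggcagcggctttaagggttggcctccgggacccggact

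Both strands of each window were searched for 3 short motifs, none of which overlaps another. The GC box was spelled GGGCGG for this search. For the core promoter element called the TATA box, the letters TATAAA were used. The element of the kind bound by HOX13 proteins was looked for with the letters TTTATTG in the same way. The first Igfbp2 window held 3 GC boxes and 14 CpG dinucleotides, and the Igfbp7 window held 4 GC boxes and 26 CpG dinucleotides. Neither the second Igfbp2 window nor the Igfbp5 window held a GC box. A GC box was present in 32.7% of 32851 windows of the same length. The TATA box letters, found in 12.4% of windows, were in none of the 4 windows shown, and the HOX13 element, found in 4.2%, was in none of the 9 windows available for 8 of the genes. These matches describe letters only.

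In mm9, the build of the counts, the binding-protein genes span chr1:72871077-72899048 (Igfbp2), chr1:72904506-72921458 (Igfbp5), chr5:77778265-77837070 (Igfbp7), chr11:7106089-7113926 (Igfbp3), chr11:98902558-98913969 (Igfbp4) and chr15:101974793-101979942 (Igfbp6). Igf1 spans chr10:87321010-87399792, Igf1r chr7:75097713-75371484 and Insr chr8:3150922-3279617, and reads over all exons of a gene were counted together.

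None of the 9 genes passed the adjusted threshold, against the background of 0.309% of all genes. At an unadjusted p under 0.05, 3 of them passed (Igfbp2, Igfbp5 and Igfbp7, all lower with HOXA13), whereas 14.1% of all tested genes did. That count was 1 without CONTROL 1, without CONTROL 3 and without HOXA13 1, and ranged from 1 to 4 over all alternatives. With DESeq2 1 of the 9 passed after adjustment (Igfbp2), where 5.05% of all tested genes passed. With limma voom and sample quality weights 2 passed (Igfbp2 and Igfbp7), where 15.4% of all genes passed. The median log2 fold change (HOXA13 minus CONTROL) of the 9 genes was -0.26, and that of all tested genes was -0.01. CONTROL 2 lay apart from the other controls for several of these genes, as the plot of levels by library shows.

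**Figure D1:**
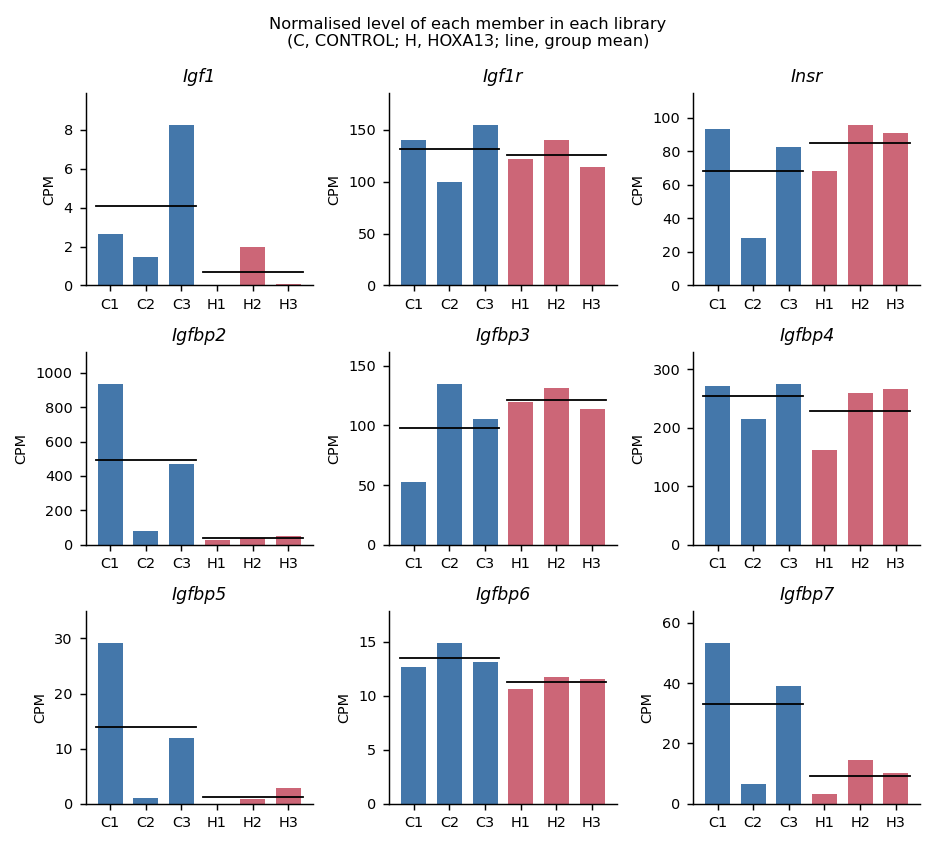
Level of each of the 9 genes in each library, in CPM on a linear axis that starts at 0, with its own scale per gene; bars are single libraries and horizontal lines are group means. Igfbp2 is at 936, 77.3 and 469 CPM in the controls and at 27.7 to 50.1 CPM with HOXA13, while Igf1r and Igfbp4 overlap between groups.

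Igf1, the ligand best known for mediating growth hormone action, had the lowest level of the 9 genes per kilobase of exon in both groups, and HOXA13 1 and HOXA13 3 lay under the floor of 3 reads. It was measured at 2.62, 1.44 and 8.25 CPM in the CONTROL libraries and at 0, 1.99 and 0.0606 CPM in the HOXA13 libraries, which are 37, 18 and 110 reads against 0, 34 and 1 reads. HOXA13 2 lay above CONTROL 2, so the groups overlapped. The log2 fold change was -2.55 ± 1.49 (SE), with an unadjusted 95% interval from -5.99 to 0.89 and an edgeR adjusted p of 0.510. It was -6.64 without HOXA13 2 (edgeR adjusted p = 0.339) and -1.56 without CONTROL 3 (edgeR adjusted p = 0.877). Igf2, the fetal ligand, which was not among the 9 genes, was measured at 3199, 805 and 2219 CPM in the CONTROL libraries and at 1096, 3356 and 3597 CPM in the HOXA13 libraries. These ranges overlapped, and the log2 fold change was 0.37 ± 0.55 (SE), with an edgeR adjusted p of 0.828. It was -0.026 without CONTROL 2 and 0.81 without CONTROL 1, so its direction turned without CONTROL 2. Igf2 supplied between 99.6 and 100% of the reads of the Igf1 and Igf2 genes in every library, although Igf2 overlaps an antisense gene whose reads may not be separable. Ins1 and Ins2 had no reads in any library.

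Igf1r, the receptor through which both IGFs signal, was among the most even of the genes. Its levels were 140, 100 and 155 CPM for CONTROL and 122, 141 and 114 CPM for HOXA13, and the HOXA13 libraries all lay within the CONTROL range. The log2 fold change was -0.07 ± 0.20 (SE), with an edgeR adjusted p of 0.925. The unadjusted 95% interval ran from -0.52 to 0.39, so differences beyond those bounds lay outside it.

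Insr, which binds insulin and, in one isoform, IGF2, was measured at 93.5, 28.1 and 82.8 CPM in the CONTROL libraries and at 68.0, 95.7 and 90.9 CPM in the HOXA13 libraries. CONTROL 2 was the lowest library and the other 5 lay close together. The log2 fold change was 0.32 ± 0.40 (SE), with an edgeR adjusted p of 0.793, and it was -0.07 when CONTROL 2 was left out. Igf2r, which clears IGF2 and does not signal like the other receptors, ranged from 228 to 388 CPM in CONTROL and from 240 to 468 CPM in HOXA13 (log2 fold change 0.27, edgeR adjusted p = 0.746). The log2 fold change of Igf2r was 0.051 without HOXA13 2, 0.077 without CONTROL 2 and 0.50 without HOXA13 1. Per kilobase of exon, the mean Igf1r level was 29.4 CPM for the controls and 28.1 CPM with HOXA13. The mean Insr level on the same scale was 7.05 and 8.78 CPM per kb, below Igf1r in both groups.

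Igfbp2, a binding protein abundant in fetal tissues, had the largest log2 fold change of the 9 genes when all libraries were fitted in edgeR, although that of Igf1 was larger with voom (-4.23), with a replicate block and without HOXA13 2, and that of Igfbp5 without HOXA13 3. It was measured at 936, 77.3 and 469 CPM in the CONTROL libraries and at 27.7, 38.5 and 50.1 CPM in the HOXA13 libraries. Every HOXA13 library lay below every CONTROL library, although CONTROL 2 was nearer to the HOXA13 libraries than to the other controls. The mean was 494 ± 430 CPM (SD, n = 3) for the controls and 38.8 ± 11.2 CPM (SD, n = 3) with HOXA13, a ratio of 12.7. The log2 fold change was -3.67 ± 0.78 (SE), with an unadjusted 95% interval from -5.46 to -1.88 and an edgeR adjusted p of 0.102. The adjusted p was 0.00278 with DESeq2 and 0.00206 with voom. Without CONTROL 2 the log2 fold change was -4.19, with an edgeR adjusted p of 0.000386, in a fit where 14.2% of all tested genes passed. Without the filter on low counts the adjusted p was 0.0306, with 0.921% of genes passing. Over all 15 alternatives the log2 fold change stayed between -4.24 and -2.83, the latter without CONTROL 1, and the adjusted p between 0.000386 and 0.496.

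Igfbp5, which binds extracellular matrix as well as IGFs, is the neighbour of Igfbp2. It was measured at 29.1, 0.959 and 11.9 CPM in the CONTROL libraries and at 0, 0.937 and 2.79 CPM in the HOXA13 libraries. CONTROL 2, with 12 reads, lay within the HOXA13 range, so the groups overlapped. The log2 fold change was -3.47 ± 1.38 (SE), with an edgeR adjusted p of 0.313, and -4.02 without CONTROL 2, with an adjusted p of 0.0275. It was -2.36 without CONTROL 1 (edgeR adjusted p = 0.741) and -4.83 without HOXA13 3 (edgeR adjusted p = 0.571), and the adjusted p ranged from 0.0275 to 0.741 over the alternatives. Both genes ran opposite to their chromosome: the median log2 fold change of 470 chromosome 1 genes was 0.53, and 92.1% of them were higher in HOXA13. With that chromosome shift taken out, the log2 fold changes were -4.24 for Igfbp2 (edgeR adjusted p = 0.101) and -4.05 for Igfbp5 (edgeR adjusted p = 0.287).

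Igfbp7, a secreted matrix-associated protein, was measured at 53.3, 6.40 and 39.2 CPM in the CONTROL libraries and at 3.07, 14.6 and 10.1 CPM in the HOXA13 libraries. CONTROL 1 and CONTROL 3 were above all HOXA13 libraries, and CONTROL 2 lay within the HOXA13 range. The log2 fold change was -1.82 ± 0.78 (SE), with an edgeR adjusted p of 0.346. It was -2.32 without CONTROL 2, with an adjusted p of 0.0181, and the adjusted p was 0.0353 with voom. It was -1.31 without CONTROL 1 (edgeR adjusted p = 0.736) and -1.42 without HOXA13 1 (edgeR adjusted p = 0.583), and the adjusted p ranged from 0.0181 to 0.736 over the alternatives.

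Markers of other cell states also varied between these libraries, though not all in the pattern of Igfbp2, Igfbp5 and Igfbp7. Of 12 mesenchymal markers, 11 were tested and none passed in edgeR, with 1 lower and 1 higher in every HOXA13 library (8.52% and 11.5% of all tested genes were), and their median log2 fold change was -1.15. Their summed level spanned 2639 to 9330 CPM over the controls and 2187 to 5597 CPM over the HOXA13 libraries, and Lum had reads in CONTROL 1 only. The members of the list differed in direction. Vim, an intermediate filament gene of mesenchymal cells, was measured at 4351, 548 and 3576 CPM in the CONTROL libraries and at 155, 722 and 481 CPM in the HOXA13 libraries. Fn1, which encodes fibronectin and took the most reads of the list in all libraries but CONTROL 1, was measured at 3374, 2033 and 3728 CPM in the CONTROL libraries and at 1997, 4631 and 4976 CPM in the HOXA13 libraries (log2 fold change 0.35). Thy1 (1.03, higher in every HOXA13 library) and Dcn (1.19), both under 10 CPM, also had positive log2 fold changes. Every other tested member had a negative one, as did Vim (-2.64). These were Col1a1 (-3.37), Col1a2 (-2.58), Pdgfrb (-1.83), Postn (-1.80), Twist1 (-1.15), Col3a1 (-1.01) and Pdgfra (-0.20). CONTROL 1 and CONTROL 3 were thus the highest libraries for Vim, as for Igfbp2, Igfbp5 and Igfbp7. Fn1, Thy1 and Dcn were instead highest in a HOXA13 library. Of 8 epithelial markers, 6 were higher in every HOXA13 library, against the same 11.5%, and none passed in edgeR. The 6 included Cdh1, whose protein was used for sorting, while Epcam and Krt18 overlapped between the groups. The summed level of the 8 markers spanned 2101 to 7331 CPM over the controls and 9046 to 10969 CPM over the HOXA13 libraries. A list of 8 mesonephric genes, which could mark feeder cells, summed to 20.9 to 24.0 CPM in CONTROL and 6.15 to 13.1 CPM in HOXA13. Of these, 6 were tested, 1 was lower in every HOXA13 library (8.52% of all tested genes were) and none passed in edgeR, and Osr1 had a log2 fold change of -0.02. The part of cell composition in the differences was not tested.

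Set against the summed mesenchymal level, Igfbp2 amounted to 10.0, 2.93 and 6.03% in CONTROL and to 1.27, 0.688 and 0.899% in HOXA13, with no overlap, but Fn1 made up most of that sum in the HOXA13 libraries. With Fn1 left out of the sum, Igfbp2 amounted to 15.7, 12.8 and 11.6% in CONTROL and to 14.6, 3.98 and 8.46% in HOXA13, and the groups overlapped. Set against Vim alone, it amounted to 21.5, 14.1 and 13.1% in CONTROL and to 17.9, 5.33 and 10.4% in HOXA13, and the groups overlapped here too. Whether the groups separated thus depended on Fn1 being in the reference. Igfbp7 amounted to 1.22, 1.17 and 1.10% of Vim in CONTROL and to 1.99, 2.03 and 2.1% in HOXA13. On that scale Igfbp7 was higher in every HOXA13 library, although 2 of the 3 controls had the highest CPM. Vim had the larger fall (log2 fold change -2.64, against -1.82 for Igfbp7), so a gene falling less than Vim tends to rise on that scale. The share of all genes that would do so was not computed. With Fn1 left out of the mesenchymal sum, Igfbp7 amounted to 0.894, 1.06 and 0.965% in CONTROL and to 1.62, 1.52 and 1.71% in HOXA13. Every HOXA13 library was higher there too, against a sum that includes Vim. Against the whole mesenchymal sum, Igfbp7 amounted to 0.571, 0.242 and 0.503% in CONTROL and to 0.141, 0.262 and 0.182% in HOXA13, and the groups overlapped. Igfbp5 overlapped between the groups against each of these references. These ratios were chosen after the values were seen and carry no test.

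**Figure D2:**
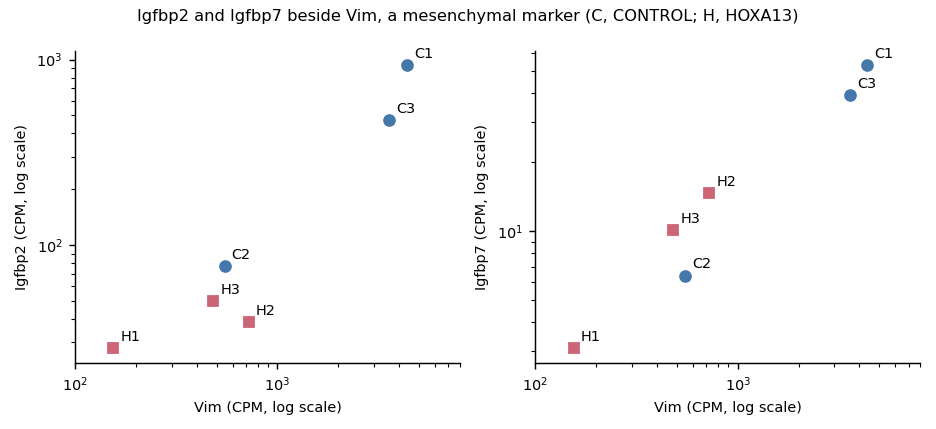
Igfbp2 (left) and Igfbp7 (right) against Vim in the 6 libraries, all in CPM on log axes; circles are CONTROL (C) and squares HOXA13 (H) libraries. CONTROL 1 and CONTROL 3 stand at the upper right, while CONTROL 2 (548 CPM of Vim) lies within the HOXA13 range of Vim (155 to 722 CPM) and of Igfbp7, and above that of Igfbp2.

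The other binding proteins differed little. Igfbp3, which carries most circulating IGF, was measured at 52.6, 135 and 106 CPM in the CONTROL libraries and at 119, 131 and 114 CPM in the HOXA13 libraries. The HOXA13 libraries all lay within the CONTROL range, and the log2 fold change was 0.31 ± 0.31 (SE), with an edgeR adjusted p of 0.726. It was -0.0080 without CONTROL 1 and 0.60 without CONTROL 2. Igfbp4, an inhibitor of IGF action until it is cleaved, was measured at 272, 214 and 275 CPM in the CONTROL libraries and at 161, 259 and 267 CPM in the HOXA13 libraries. HOXA13 1 was the lowest library, and the log2 fold change was -0.15 ± 0.22 (SE), with an edgeR adjusted p of 0.831. It was 0.040 without HOXA13 1 and -0.29 without HOXA13 3. Igfbp6, which prefers IGF2, was measured at 12.6, 14.9 and 13.1 CPM in the CONTROL libraries and at 10.6, 11.7 and 11.6 CPM in the HOXA13 libraries. Its groups did not overlap, but the log2 fold change was -0.26 ± 0.27 (SE), with an edgeR adjusted p of 0.743. Thus 2 of the 9 genes, Igfbp2 and Igfbp6, were lower in every HOXA13 library, a pattern shown by 8.52% of all tested genes.

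**Figure D3:**
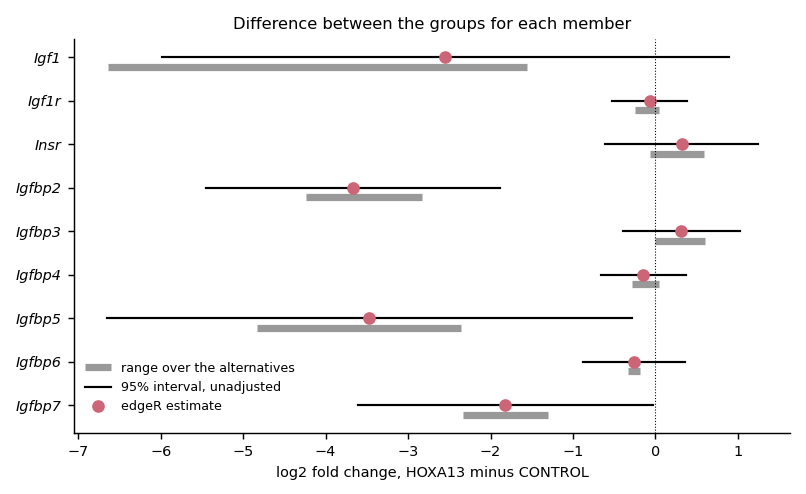
Log2 fold change (HOXA13 minus CONTROL) of each of the 9 genes; points are edgeR estimates, thin lines unadjusted 95% intervals and grey bars the range over the processing alternatives. Igfbp2 (-3.67), Igfbp5 (-3.47) and Igfbp7 (-1.82) have intervals below 0, and the other 6 intervals include 0.

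For an approximate comparison between genes, levels were expressed per kilobase of exon. The 6 binding proteins summed to 699, 194 and 450 CPM per kb in CONTROL and to 133, 195 and 196 CPM per kb in HOXA13. Igfbp2 made up 72.5, 21.5 and 56.4% of this sum in CONTROL and 11.3, 10.7 and 13.8% in HOXA13. Igfbp4 made up 16.5, 46.7 and 25.9% in CONTROL and 51.1, 56.2 and 57.7% in HOXA13, the highest share of the 6 in every HOXA13 library and in CONTROL 2. The summed CPM of the other 5 binding proteins was 420, 371 and 445 in CONTROL and 294, 418 and 405 in HOXA13, and these ranges overlapped.

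**Figure D4:**
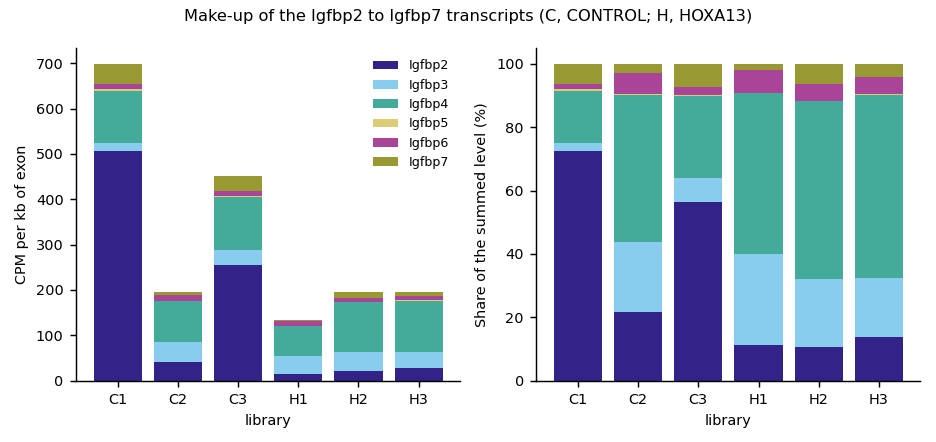
Levels of the 6 binding-protein genes in each library as stacked bars, in CPM per kilobase of exon (left) and as a percentage of their sum (right). Igfbp2 makes up 72.5 and 56.4% in CONTROL 1 and CONTROL 3 and 10.7 to 13.8% in the HOXA13 libraries.

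A list of 54 further IGF pathway genes was examined, of which 46 had enough reads to be tested and 1 passed in edgeR, where 0.309% of all tested genes passed. With DESeq2 5 passed and with voom 13, where 5.05% and 15.4% of all genes passed. Their median log2 fold change was -0.02. The gene that passed was Htra1, a secreted serine protease that cleaves IGF-binding proteins. Htra1 fell from 73.1, 73.2 and 63.7 CPM in CONTROL to 27.5, 23.3 and 15.6 CPM in HOXA13, with no overlap. Its log2 fold change was -1.66 ± 0.25 (SE), with an edgeR adjusted p of 0.0470. The adjusted p was 6.4e-07 with DESeq2 and 0.0523 when genes needed a mean of 50 reads. It was 0.0670 with a chromosome offset and 0.165 with a replicate block, with log2 fold changes of -1.65 and -1.70. Without single libraries other than CONTROL 2 the call was lost, with adjusted p between 0.0809 and 0.328, while the log2 fold change stayed between -1.86 and -1.48. For Htra1, CONTROL 2 was level with the other controls, unlike for Igfbp2 and Vim.

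Pappa and Adam12, metalloproteases that cleave IGF-binding proteins, had the largest fold changes of the other pathway genes with a mean of 5 CPM or more when all libraries were used. Pappa was measured at 17.1, 1.92 and 7.87 CPM in the CONTROL libraries and at 0.692, 1.93 and 2.67 CPM in the HOXA13 libraries (log2 fold change -2.33, edgeR adjusted p = 0.271). Adam12 was measured at 22.2, 3.68 and 16.1 CPM in the CONTROL libraries and at 1.23, 4.63 and 2.97 CPM in the HOXA13 libraries (log2 fold change -2.24, edgeR adjusted p = 0.226). In both genes CONTROL 2 lay within the HOXA13 range. Without CONTROL 1 the log2 fold change of Pappa was -1.48 (edgeR adjusted p = 0.732) and without CONTROL 2 -2.82 (edgeR adjusted p = 0.0195). That of Adam12 was -1.75 without CONTROL 1 (edgeR adjusted p = 0.568) and -2.70 without CONTROL 2 (edgeR adjusted p = 0.0109). Of the 6 proteases and inhibitors tested, 4 had an unadjusted p under 0.05, where 14.1% of all tested genes did, and the median log2 fold change was -1.31. Pappa and Adam12 were no longer among them without CONTROL 1 or with a replicate block, and Pappa also without HOXA13 1 or HOXA13 2. Adam12 and Adam9 passed with DESeq2 and with voom, which passed 5.05% and 15.4% of all genes.

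Downstream of the receptors, none of 12 adaptor genes and none of 23 PI3K-AKT-mTOR genes passed in edgeR, with 2 and 4 respectively at an unadjusted p under 0.05, where 14.1% of all tested genes were. Median log2 fold changes were -0.04 and 0.01. DESeq2 passed 1 gene in each list, against 5.05% of all genes, and voom passed 3 adaptors and 5 cascade genes, against 15.4% of all genes. The following genes were picked after their values were seen. Grb10, an adaptor that restrains IGF1R and INSR signalling, was measured at 323, 274 and 368 CPM in the CONTROL libraries and at 170, 245 and 189 CPM in the HOXA13 libraries (log2 fold change -0.67, edgeR adjusted p = 0.176). Pik3cb, a catalytic subunit of PI3K, was measured at 100, 175 and 148 CPM in the CONTROL libraries and at 232, 271 and 248 CPM in the HOXA13 libraries (log2 fold change 0.83, edgeR adjusted p = 0.150). Neither gene's groups overlapped. In every HOXA13 library, 1 adaptor was lower and 1 higher, and 4 cascade genes were higher and none lower, against 8.52% (lower) and 11.5% (higher) of all tested genes.

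**Figure D5:**
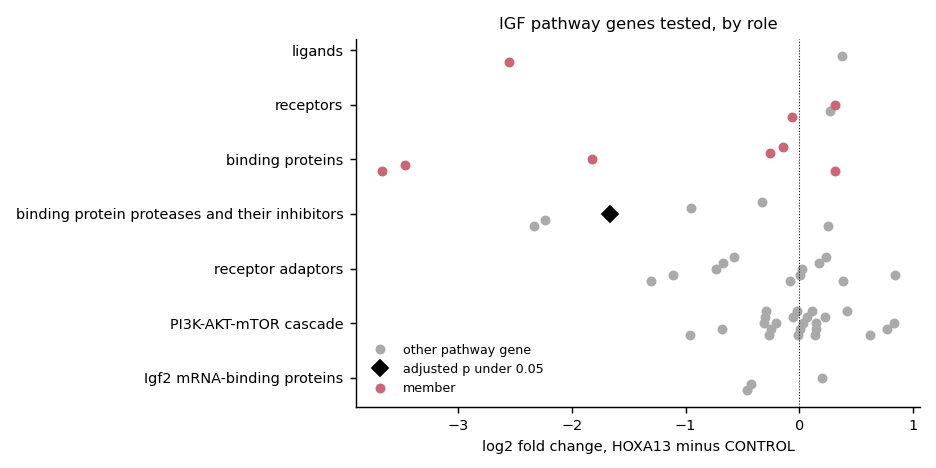
Log2 fold change (HOXA13 minus CONTROL) of the tested IGF pathway genes by role; red points are the 9 genes, grey points other pathway genes, and the black diamond Htra1 (-1.66), the gene with an edgeR adjusted p under 0.05. Points are spread vertically within a role for legibility only.

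Genes whose log2 CPM followed each of the 9 most closely over the 6 libraries, among those with a mean of at least 5 CPM, are given as a description, since library differences are shared by many genes. Reep5 (Pearson's r of 0.998), Gpc6 (0.997) and Serf2 (0.996) were most like Igfbp2, and 216 genes had an r above 0.95. Magee1 (0.998), Cd248 (0.997) and Ubr3 (0.996) were most like Igfbp7, with 292 genes above 0.95. Srprb (0.995), Terf2ip and Brsk1 (both 0.992) were most like Igfbp5, with 131 above 0.95. For the receptors, Ube3a and Vps9d1 (both 0.990) and Degs1 (0.986) were most like Igf1r, and Fam102b (0.997), Synj1 and Stx6 (both 0.994) most like Insr. Uvrag (0.992) and Epha4 (0.988) were among those most like Igf1. For the other binding proteins, the closest were Polr1d (0.994), Tmem158 (0.991) and Lsr (0.990) for Igfbp3, Thsd7a (0.994), Creb3l2 and Zfp27 (both 0.991) for Igfbp4, and Nedd4 (0.981), Gnptg (0.980) and Ift74 (0.979) for Igfbp6. Among the 9 genes themselves, r was 0.911 between Igfbp2 and Igfbp5, 0.888 between Igfbp2 and Igfbp7, 0.95 between Igfbp5 and Igfbp7, and -0.804 between Igfbp2 and Igfbp3.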

How the data were processed

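RNA was sequenced as directional poly-A libraries from 6 samples (3 HOXA13, 3 CONTROL). Per the labels, the authors' processing used bcl2fastq 2.17, TopHat2 2.0.14 (the methods name another release) with mm9, and HTSeq 0.6.1p1; the annotation, strand option and treatment of multi-mapping reads are not given in the sources used here. The deposited values are raw gene counts. Genes were filtered with edgeR's filterByExpr (minimum count 10, minimum total 15), scaled by TMM and compared by quasi-likelihood F test (edgeR 4.0.16, R 4.3.3) over all 13600 tested genes, with Benjamini-Hochberg adjustment. CPM use TMM-scaled library sizes. Intervals at 95% are not adjusted for multiple tests. DESeq2 1.42.0, limma voom 3.58.1, RLE and upper quartile scaling, no filter, a mean of at least 50 counts, a replicate block, a chromosome offset and leaving out each library were the alternatives; edgeR's newer method was added after seeing the data. Exon lengths came from GENCODE (mm9), and 91.5% of tested genes had a position. These lengths may differ from those of the annotation behind the counts, so levels per kilobase are approximate. Promoters came from RefSeq (GRCm38.p6); 8 of the 9 genes matched, and mm9 and GRCm38.p6 coordinates are not interchangeable. Members and lists were chosen with earlier results of these data known. Named genes were the 9 members, pathway genes that passed, Igf2, Igf2r, the 2 other pathway genes with the largest fold changes and means of 5 CPM or more, the 3 genes most like each member, Cdh1 and Cxcr4; the other genes named came from the pathway and marker lists and were picked after their values were seen. One gene that the rule names is not reported here. P-values set the difference between groups against the spread between samples within a group, and the methods call these samples biological replicates. The methods do not say whether each sample came from a separate clone. The code was tested on simulated data.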

Additional observations from a re-analysis of the deposited data

How the results depend on the processing

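The biological coefficient of variation was 41.5% with 3 libraries a group, and CONTROL 2 decided many calls. Of the 9 genes, 0 passed in edgeR (3 at an unadjusted p under 0.05), 1 with DESeq2, 2 with voom, 1 without a filter, and 0 to 3 when single libraries were left out, the 3 without CONTROL 2 being Igfbp2, Igfbp5 and Igfbp7. Of all IGF pathway genes, these 9 included, 1 passed in edgeR, 6 with DESeq2, 15 with voom, 2 without a filter, 0 when the mean had to reach 50 counts, 0 with a chromosome offset, and 0 to 14 without single libraries. Over all genes 42 passed, against 722 with DESeq2, 2101 with voom, 163 without a filter, 9 when the mean had to reach 50 counts, 1 with a chromosome offset, 106 with edgeR's newer method, and 0 to 2006 without single libraries (2006 without CONTROL 2). RLE and upper quartile scaling kept these counts within 1.5 times. The direction of 4 genes turned without 1 library: Igf1r ran from -0.25 to 0.048 (positive without CONTROL 3), Insr from -0.069 to 0.60 (negative without CONTROL 2), Igfbp3 from -0.0080 to 0.60 (negative without CONTROL 1) and Igfbp4 from -0.29 to 0.040 (positive without HOXA13 1). Igfbp2, Igfbp5, Igfbp6 and Igfbp7 were negative in all 15 alternatives, and Igf1 in the 14 that tested it. The cause of these shifts was not tested.

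Libraries with the same replicate number did not deviate together (correlations of deviations -0.210, -0.271 and 0.098, with 1 of 6 libraries correlating best with its own number). These values gave no sign that the numbers pair the libraries. With 3 libraries a group they are too few to tell whether a number marks shared handling. With a replicate block 0 of the 9 genes, 0 of the pathway genes and 0 of all genes passed in edgeR, with 1392 of all genes at an unadjusted p under 0.05, and the log2 fold change was -3.12 for Igfbp2 and -4.40 for Igf1.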

Other observations

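The 3 Igf2 mRNA-binding protein genes, whose products bind IGF2 transcripts, were all measured well. Igf2bp1 was measured at 604, 574 and 500 CPM in the CONTROL libraries and at 458, 399 and 392 CPM in the HOXA13 libraries, with no overlap (log2 fold change -0.43, edgeR adjusted p = 0.268). Igf2bp2 also did not overlap (log2 fold change -0.46, edgeR adjusted p = 0.234), and Igf2bp3 did (0.20). None passed in edgeR or DESeq2, 2 had an unadjusted p under 0.05 (14.1% of all tested genes did), and 2 passed with voom (15.4% of all genes did). The 2 genes without overlap were lower in every HOXA13 library, as were 8.52% of all tested genes.

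Irs1, an adaptor of both receptors, also lies on chromosome 1, where the median log2 fold change was 0.53, and its own log2 fold change was -1.31 (edgeR adjusted p = 0.394). Irs1 was measured at 232, 42.6 and 238 CPM in the CONTROL libraries and at 35.2, 95.5 and 76.8 CPM in the HOXA13 libraries, so that CONTROL 2 again lay within the HOXA13 range. Irs1 was chosen after its values were seen.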
